A study of Mus musculus with 7 samples.

Results

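Expression of the genes of amyloid precursor processing and of tau was described in 7 RNA-seq libraries of mouse hippocampus. The members were chosen by symbol, as the rows of all 7 count tables whose Ensembl identifier maps to App, Aplp1, Aplp2, Bace1, Adam10, Psen2, Ncstn or Mapt, and all 8 were found among 55416 gene identifiers. The mice were male, age-matched animals of the outbred CD1 stock, whose age in weeks is not given in the sources used here. Control mice were untreated and gave 3 libraries (replicates 1 to 3). ONX-0914 mice were injected intraperitoneally with 10 mg/kg of ONX-0914, an inhibitor of non-constitutive proteasomes, 2 times per week for 2 months, and gave 2 libraries (replicates 1 and 2). DMSO mice received the vehicle on the same schedule and gave 2 libraries (replicates 2 and 3). The labels do not say that the libraries of a group came from separate animals, so the p-values below measure the spread between these libraries. The question asked here is whether 2 months of the inhibitor, or of its vehicle, went with other levels of these mRNAs.

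The amyloid precursor protein App and its relatives Aplp1 and Aplp2 are membrane proteins that neurons make in large amounts and cleave in successive steps. The beta-secretase Bace1 makes the first cut on the path to the amyloid beta peptide, whereas the alpha-secretase Adam10 cuts App inside the peptide sequence and releases a soluble ectodomain. The stub that either cut leaves in the membrane is then cleaved by gamma-secretase, a complex in which a presenilin such as Psen2 is the catalytic subunit and nicastrin, the product of Ncstn, is a scaffold and substrate receptor. Mapt encodes tau, an axonal protein that binds microtubules and forms the tangles of Alzheimer disease when it is hyperphosphorylated. Other genes of these routes, secretase genes included, were not all analysed here.

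Promoters are shown for the 3 members that had their lowest values in the ONX-0914 libraries (App, Aplp1 and Adam10) and for Aplp2, in which these libraries disagreed. RefSeq promoter sequences matched 6 of the 8 members, and Bace1 and Mapt were not among them. Each sequence is the 250 bases before the RefSeq start of the gene, read 5′ to 3′ on the strand of the gene in build GRCm38.p6, and capitals mark the GC box GGGCGG, a motif bound by Sp1-type factors, on either strand with overlapping matches counted. They lie at chr16:85173708-85173957 (minus strand), chr7:30445583-30445832 (minus), chr9:70678732-70678981 (plus) and chr9:31211849-31212098 (minus).
App: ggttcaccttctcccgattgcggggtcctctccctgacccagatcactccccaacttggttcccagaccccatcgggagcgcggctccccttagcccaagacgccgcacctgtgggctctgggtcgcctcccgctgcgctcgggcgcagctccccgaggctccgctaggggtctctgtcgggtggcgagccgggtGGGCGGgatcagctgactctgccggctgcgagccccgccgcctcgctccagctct
Aplp1: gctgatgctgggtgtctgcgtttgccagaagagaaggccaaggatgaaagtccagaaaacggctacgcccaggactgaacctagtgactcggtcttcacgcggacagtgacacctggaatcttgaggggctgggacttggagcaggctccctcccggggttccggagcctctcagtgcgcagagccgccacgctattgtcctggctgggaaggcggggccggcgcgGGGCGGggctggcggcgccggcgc
Adam10: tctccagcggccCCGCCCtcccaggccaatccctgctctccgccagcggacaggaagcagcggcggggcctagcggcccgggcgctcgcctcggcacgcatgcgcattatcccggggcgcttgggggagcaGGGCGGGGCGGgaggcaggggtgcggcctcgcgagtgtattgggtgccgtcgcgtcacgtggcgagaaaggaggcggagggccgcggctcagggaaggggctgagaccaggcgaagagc
Aplp2: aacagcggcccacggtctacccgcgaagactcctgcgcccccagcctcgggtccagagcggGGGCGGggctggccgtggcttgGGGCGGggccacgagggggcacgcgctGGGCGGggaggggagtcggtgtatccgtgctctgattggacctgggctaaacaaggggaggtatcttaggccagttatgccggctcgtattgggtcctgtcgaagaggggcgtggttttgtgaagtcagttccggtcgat

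These 4 promoters were rich in G and C. The GC content was 70.8% for App, 66% for Aplp1, 74% for Adam10 and 66.4% for Aplp2, beside a median of 52.4% over all 32851 promoters of the table. The GC box was found 1 time in App and Aplp1 and 3 times in Adam10 and Aplp2, and 32.7% of all promoters held it. Of the member promoters not printed, Ncstn (63.2% GC) held none, the first RefSeq start of Psen2 (62.8% GC) held 2, and its second start (44.8% GC) held none. The TATA box TATAAA, held by 12.4% of all promoters on either strand, was in none of the 4. The antioxidant response core TGACNNNGC, a motif of factors such as Nfe2l1 that respond to proteasome inhibition, was found 1 time in App and was absent from these letters in the other 3, with 10.2% of all promoters holding it. These are matches of letters and not sites of binding.

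Both ONX-0914 libraries stood apart from the rest, each in its own way. The total count on genes was 2842675 to 3877006 in 6 libraries and 13782270 in ONX-0914 replicate 2, which therefore has the smallest counting error. Markers of hippocampal neurons, summed over 9 genes, were at 1134 to 1192 CPM (read counts per library size, scaled by TMM) in the control and DMSO libraries, 934 in ONX-0914 replicate 2 and 287 in the library labelled ONX-0914 replicate 1, where all 9 lay below the control range. In that library 8 markers of thalamus and midbrain summed to 938 CPM, against 92.4 to 137 in the control and DMSO libraries, and 9 markers of striatum to 1377 CPM, against 235 to 271. In ONX-0914 replicate 2, 5 markers of blood summed to 832 CPM, against 29.9 to 46.2 in the control and DMSO libraries, and mitochondrially encoded genes took 3.71% of the counts, against 0.818% to 1.59% in the other 6. Thus the library labelled ONX-0914 replicate 1 goes against its tissue label by its markers, and results are given with and without each ONX-0914 library.

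In control hippocampus the members fell into 2 tiers when levels were set per length, as CPM per kilobase (kb) of the longest well-supported transcript. App was at 798 ± 26.7 CPM per kb (SD, n = 3), Aplp1 at 705 ± 36.9, Aplp2 at 324 ± 22.8 and Mapt at 189 ± 9.02. Adam10 was at 23.1 ± 2.02, Ncstn at 14.8 ± 1.07, Bace1 at 12.6 ± 1.63 and Psen2 at 9.33 ± 0.842 CPM per kb. Hence the substrates and tau were well above the enzymes that cut the substrates. Neighbours in this order did not overlap between control libraries, except Ncstn (13.6 to 15.5 CPM per kb) and Bace1 (10.8 to 14). The order of App depends on the length used, since over the union of all annotated exons Aplp1 was at 548 ± 28.6, Aplp2 at 200.1 ± 14.1 and App at 195 ± 6.52 CPM per kb, and Bace1 (12 ± 1.55) then came before Ncstn (10.8 ± 0.779).

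**Figure D1:**
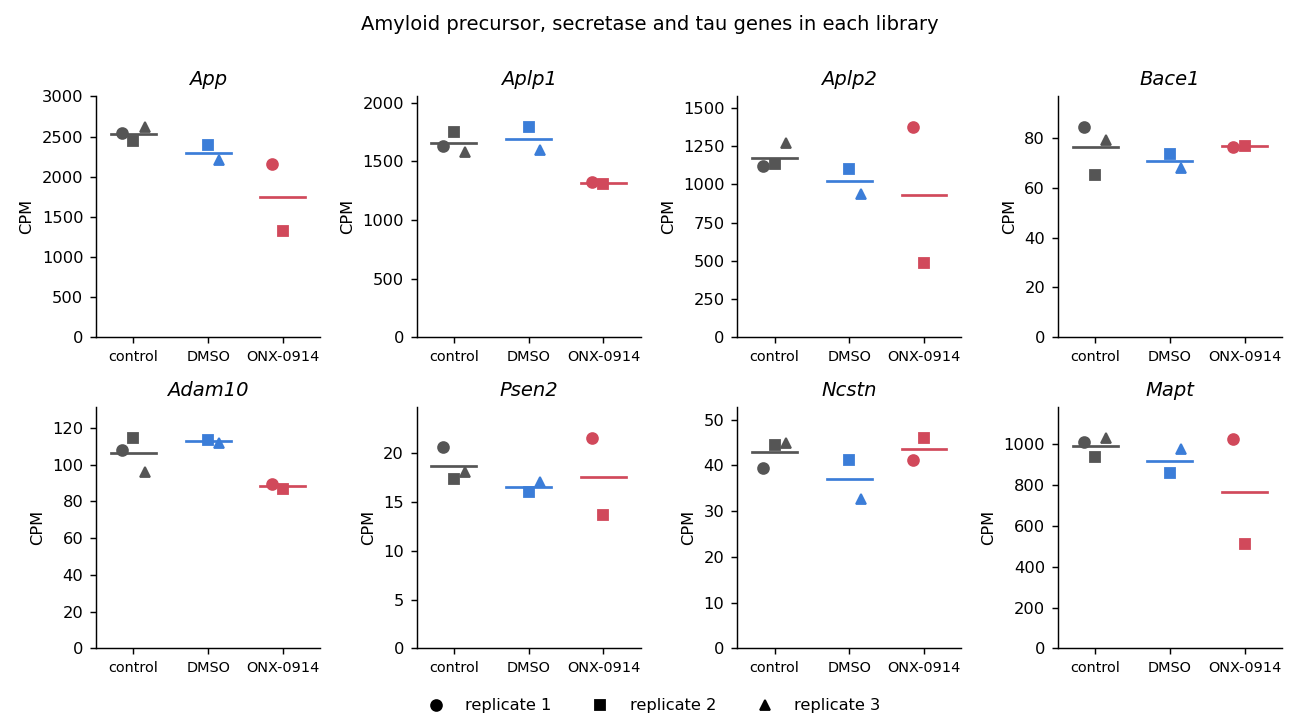
Levels in CPM (linear axes from 0) of the 8 genes in each of the 7 libraries, with the replicate number as the symbol and the group mean as the line. The 2 ONX-0914 points sit below every other point for App, Aplp1 and Adam10, while the 2 ONX-0914 libraries are far apart for Aplp2 and Mapt.

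App, the amyloid precursor itself, had its 2 lowest values in the ONX-0914 libraries. It measured 2540, 2448 and 2618 CPM in control replicates 1, 2 and 3, 2390 and 2210 CPM in DMSO replicates 2 and 3, and 2160 and 1324 CPM in ONX-0914 replicates 1 and 2. The groups did not overlap, but most of the difference sat in ONX-0914 replicate 2, which was at 0.522 of the control mean, against 0.852 in replicate 1. The Log2FC of ONX-0914 against control was -0.54 (SE 0.26, 95% interval -1.14 to 0.06, edgeR adjusted p = 0.307), so the difference did not pass the threshold of 0.05 for the adjusted p. Against DMSO it was -0.40 (SE 0.28, interval -1.05 to 0.25, edgeR adjusted p = 0.506). In bulk tissue, fewer cells that express a gene and less of its mRNA per cell cannot be told apart.

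Aplp1, the member of the family that is largely restricted to neurons, was low to the same degree in both ONX-0914 libraries. It measured 1631, 1748 and 1579 CPM in control replicates 1, 2 and 3, 1792 and 1595 CPM in the DMSO libraries, and 1319 and 1310 CPM in ONX-0914 replicates 1 and 2. The 2 ONX-0914 values differed by a ratio of 1.01, whereas the median gene differed 1.5-fold between these libraries in either direction. The Log2FC was -0.33 against control (SE 0.20, interval -0.78 to 0.13, edgeR adjusted p = 0.394) and -0.36 against DMSO (SE 0.22, interval -0.86 to 0.13, adjusted p = 0.433). This close agreement of the ONX-0914 libraries thus came with a difference that did not pass either test.

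Aplp2, the widely expressed relative of App, went in opposite directions in the ONX-0914 libraries. It measured 1121, 1135 and 1271 CPM in control replicates 1, 2 and 3, 1102 and 938 CPM in the DMSO libraries, and 1375 and 486 CPM in ONX-0914 replicates 1 and 2. Replicate 1 was above, and replicate 2 below, all other libraries, and their ratio was 2.83. The group mean, 931 ± 629 CPM (SD, n = 2), therefore lies where neither library does, and the Log2FC against control was -0.34 (SE 0.38, interval -1.22 to 0.54, edgeR adjusted p = 0.651).

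Bace1, the beta-secretase, differed little between the groups. It measured 84.5, 65.4 and 79.3 CPM in control replicates 1, 2 and 3, 73.5 and 67.9 CPM in the DMSO libraries, and 76.6 and 76.9 CPM in the ONX-0914 libraries. Both ONX-0914 values lay inside the control range. The Log2FC against control was 0.01 (SE 0.17, edgeR adjusted p = 0.983), with an interval of -0.39 to 0.40 that still allows a moderate change in either direction.

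Adam10, the alpha-secretase, had its 2 lowest values in the ONX-0914 libraries as well. It measured 108, 114 and 96.0 CPM in control replicates 1, 2 and 3, 114 and 112 CPM in the DMSO libraries, and 89.6 and 87.0 CPM in the ONX-0914 libraries. The ONX-0914 values were close to each other and did not overlap those of the other groups, although the lowest control library was not far above them. The Log2FC was -0.26 against control (SE 0.16, interval -0.63 to 0.10, edgeR adjusted p = 0.391) and -0.35 against DMSO (SE 0.17, interval -0.75 to 0.04, adjusted p = 0.372). Per length, the ratio of Bace1 to Adam10 was 0.551 ± 0.103 in control (SD, n = 3), 0.475 ± 0.0218 in DMSO (n = 2) and 0.659 ± 0.0155 in ONX-0914 libraries (n = 2). The control libraries spanned 0.434 to 0.626, so the ONX-0914 ratios of 0.648 and 0.670 lay just above them.

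Psen2, a catalytic presenilin of gamma-secretase, was the least abundant member per length and rested on 48 to 86 counts per library, or 208 in the deepest one. It measured 20.6, 17.4 and 18.1 CPM in control replicates 1, 2 and 3, 16 and 17.1 CPM in the DMSO libraries, and 21.5 and 13.7 CPM in ONX-0914 replicates 1 and 2. The ONX-0914 libraries lay on either side of the control range, and the exact 95% Poisson intervals, which cover counting error only, were 17.2 to 26.6 CPM in replicate 1 and 11.9 to 15.7 in replicate 2. The interval of replicate 2 overlapped those of the control libraries, the lowest of which ran from 13.4 to 22.2 CPM. The Log2FC against control was -0.11 (SE 0.25, edgeR adjusted p = 0.831), and it was 0.03 when libraries were scaled by total counts.

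Ncstn, the nicastrin subunit, was near its control level in both ONX-0914 libraries and lowest in a DMSO library. It measured 39.4, 44.5 and 45 CPM in control replicates 1, 2 and 3, 41.2 and 32.7 CPM in DMSO replicates 2 and 3, and 41.3 and 45.9 CPM in the ONX-0914 libraries. The Poisson interval of the low DMSO library, from 92 counts, was 26.4 to 40.1 CPM and includes the lowest control value. The Log2FC against control was 0.03 (SE 0.18, edgeR adjusted p = 0.952) for ONX-0914 and -0.22 (SE 0.19, adjusted p = 1.0) for DMSO.

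Mapt, which encodes tau, was at control level in one ONX-0914 library and far below it in the other. It measured 1013, 941 and 1030 CPM in control replicates 1, 2 and 3, 862 and 980 CPM in the DMSO libraries, and 1025 and 511 CPM in ONX-0914 replicates 1 and 2. Replicate 1 lay inside the control range and replicate 2 was at 0.514 of the control mean, with a ratio of 2.01 between them. The Log2FC against control was -0.37 (SE 0.29, interval -1.04 to 0.29, edgeR adjusted p = 0.499). The ratio of Mapt to App per length was 0.232 to 0.241 in control, and 0.218 and 0.268 in DMSO replicates 2 and 3. In ONX-0914 replicate 2, where both genes were low, it was 0.233. It was 0.287 in replicate 1, above the other 6 libraries.

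None of the 8 members was called in any of the 3 comparisons by edgeR's quasi-likelihood test at an adjusted p under 0.05. Among the 13152 genes tested, the share called was 0.114% for ONX-0914 against control, 0.0152% for DMSO against control and 0.0456% for ONX-0914 against DMSO, so a count of 0 of 8 does not set these members apart. At an unadjusted p under 0.05 edgeR gave 0 members in each comparison, with 18.6%, 2.65% and 14.7% of all genes in the same order. DESeq2 and limma voom each gave 1 in ONX-0914 against control, which was App in both tools, beside 14.6% and 19.8% of all genes, and 0 after adjustment. All 8 passed the filter on low counts. The median Log2FC of the members was -0.29 for ONX-0914 against control, beside 0.05 over all genes tested. Of the 8 members, 6 were below 0, beside 6077 of the 13152 genes tested. The 2 values above 0 (Bace1 and Ncstn) were under 0.03. Of the 6 below 0, Aplp2, Mapt and Psen2 were above 0 without ONX-0914 replicate 2 (Log2FC 0.22, 0.04 and 0.21).

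**Figure D2:**
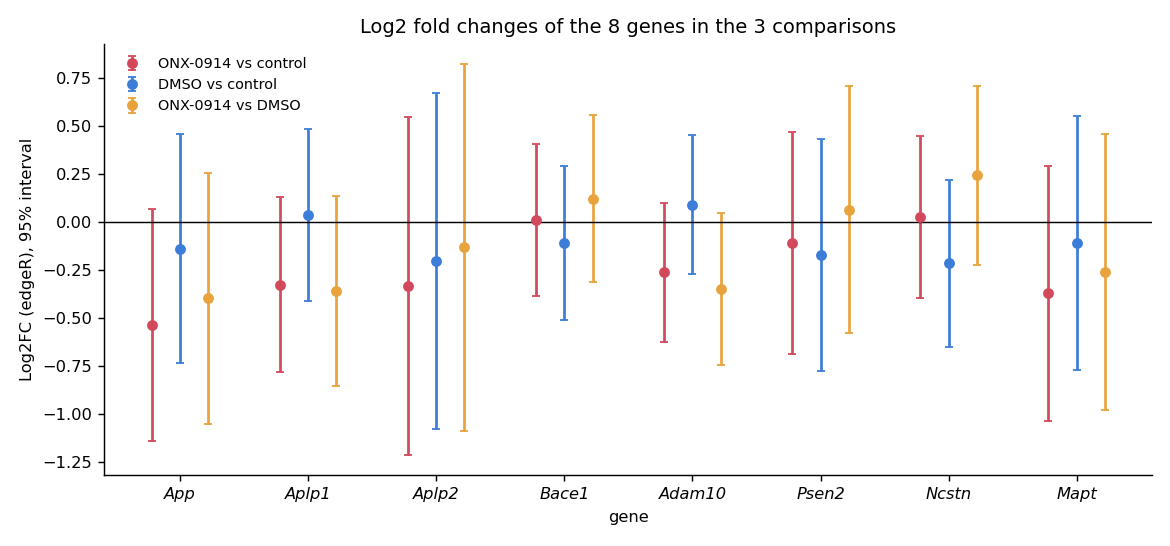
Log2FC of each of the 8 genes from edgeR with its 95% interval (bars) in the 3 comparisons, which share libraries and are not independent. Every interval includes 0, and the widest intervals belong to Aplp2.

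By position rather than test, 3 of 8 members (App, Aplp1 and Adam10) had the pair of ONX-0914 values under the lowest control value, as did 16.4% of all genes tested. The pair was over the highest control value for 0 of 8 members and for 16.8% of all genes. The same 3 members were also below both DMSO libraries, a position held by 11.4% of all genes. The pattern of Aplp2 and Psen2, with replicate 1 above and replicate 2 below the control range, was held by 12.6% of all genes. Aplp2 and Mapt were over 2-fold higher in replicate 1 than in replicate 2, as were 13.7% of all genes. With 8 members these shares amount to about 1 or 2 genes each, and the counts are given as a description.

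Because the 2 ONX-0914 libraries disagreed, the fit was repeated without each, and the remaining library was assumed to vary like the other groups. Without replicate 1, 4 members were called against control: Aplp2 fell by 1.28 on the log2 scale (edgeR adjusted p = 9.99e-08), Mapt by 0.97 (1.63e-06), App by 0.94 (1.03e-06) and Aplp1 by 0.34 (0.0172). The background then rose to 51.2% of all genes, so that 4 of 8 is near it. Against DMSO, Adam10 joined these 4 (Log2FC -0.38, edgeR adjusted p = 0.0338), and 46.0% of all genes were called. Without replicate 2, no member was called against control at a background of 19.0%, although Aplp1 came close (Log2FC -0.33, edgeR adjusted p = 0.0521). At an unadjusted p under 0.05 edgeR then gave 2 members, App (Log2FC -0.23) and Aplp1, beside 29.7% of all genes. Against DMSO, 2 members were called at a background of 17%, namely Aplp1 (Log2FC -0.36, edgeR adjusted p = 0.0441) and Aplp2, which was higher (Log2FC 0.43, adjusted p = 0.0193). Therefore the directions of Aplp2, Mapt, Psen2 and Ncstn against control depended on which ONX-0914 library was used. Those of App, Aplp1, Adam10 (Log2FC -0.29 without replicate 1 and -0.24 without replicate 2) and Bace1 (0.0071 and 0.0080) did not. The fit without replicate 2 rests on the 1 ONX-0914 library whose markers go against its tissue label. With the 5 control and DMSO libraries taken as 1 group, a choice made after seeing the data, 0 members and 2.61% of all genes were called, and the lowest adjusted p values among the members were 0.231 for App, 0.238 for Adam10 and 0.255 for Aplp1 (edgeR).

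The comparison of DMSO with control asks what the vehicle and the injections alone went with. The Log2FC of the 8 members ran from -0.22 (Ncstn) to 0.09 (Adam10), with adjusted p = 1.0 for each in edgeR. App had a Log2FC of -0.14 (SE 0.26), Aplp2 of -0.20 (SE 0.38) and Mapt of -0.11 (SE 0.29). These SE and adjusted p values come from the fit of all 7 libraries, so they also carry the spread between the 2 ONX-0914 libraries. With only the DMSO and control libraries fitted, the edgeR adjusted p was 0.480 for App, 0.322 for Aplp2 and 0.623 for Mapt. No member was called in that fit, in which 141 of all genes were called, against 2 in the fit of all 7 libraries. The pair of DMSO values was under the lowest control value for App, Aplp2 and Psen2, as it was for 15% of all genes. The intervals of all 3 included 0 in the fit of all 7 libraries.

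Within the amyloid precursor family the makeup was steady in 5 libraries and shifted in the ONX-0914 libraries. Per length, App took 42.1% to 44.6% of the family in control libraries, 41.3% and 42.6% in DMSO, and 41.9% and 37.6% in ONX-0914 replicates 1 and 2. Aplp1 took 36.5% to 40.8% in control, 42.0% and 41.6% in DMSO, and 34.7% and 50.4% in ONX-0914 replicates 1 and 2. Aplp2 took 17.1% to 18.9% in control, 16.7% and 15.8% in DMSO, and 23.3% and 12% in ONX-0914 replicates 1 and 2. Aplp1 was ahead of App in ONX-0914 replicate 2 and, by less, in DMSO replicate 2, and App was ahead in the other 5 libraries. This order holds for the transcript length alone, since over the union of exons Aplp1 was ahead in all 7 libraries and without lengths App was ahead in all 7. The mean Aplp1 share in ONX-0914 libraries, 42.6% ± 11.1 (SD, n = 2), had a spread that covers the control mean of 38.6% ± 2.16 (n = 3).

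**Figure D3:**
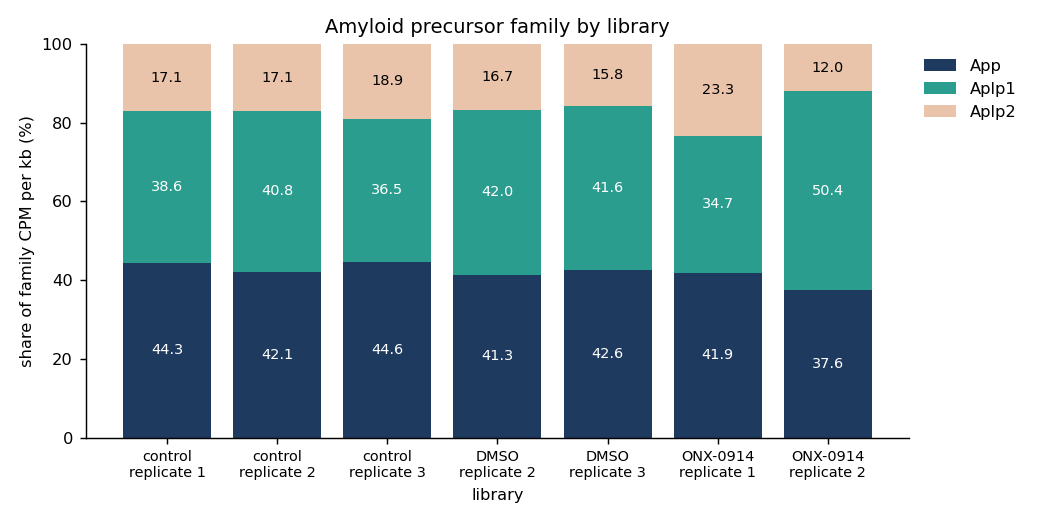
Share of App, Aplp1 and Aplp2 in the summed CPM per kb of the family (percent, each bar adding up to the whole) in each of the 7 libraries. Aplp2 takes 23.3% in ONX-0914 replicate 1 and 12% in replicate 2, against 15.8% to 18.9% in the control and DMSO libraries.

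Markers of other cells and regions also differed between the ONX-0914 libraries and the control libraries. The 8 pan-neuronal markers summed to 8210 to 9049 CPM in control and 7789 and 8837 CPM in DMSO. In ONX-0914 replicate 1 they summed to 8075 CPM, with 3 genes above the control range and 3 below. Their sum was 5148 CPM in replicate 2, where all 8 lay below the control range. Replicate 2 was thus at 0.598 of the control mean for this list, beside 0.522 for App, 0.514 for Mapt, 0.413 for Aplp2, 0.793 for Aplp1, 0.731 for Psen2, 0.820 for Adam10, 1.01 for Bace1 and 1.07 for Ncstn. The oligodendrocyte list, with 8 genes, was at 5018 to 7534 CPM in control and 7816 to 9214 CPM in DMSO. It was at 9860 CPM in ONX-0914 replicate 1, with 7 genes above the control range and 0 below. In replicate 2 it was at 4451 CPM, with 2 genes above and 4 below. Within the ONX-0914 pair its sum was thus high and low with Aplp2. DMSO replicate 3, which held the 9214 CPM, had only 938 CPM of Aplp2. The 8 astrocyte markers summed to 6261 to 6712 CPM in control and 6367 to 6625 in DMSO. They summed to 6089 CPM in ONX-0914 replicate 1, where 5 genes lay above the control range and 2 below. In replicate 2 they were at 5508 CPM, with 2 genes above and 5 below. The 9 microglial markers summed to 299 to 326 CPM in control, 345 to 401 in DMSO, 363 in replicate 1 and 510 in replicate 2, and the 7 endothelial ones to 152 to 168, 157 to 196, 272 and 242 CPM in the same order. The 6 choroid plexus markers ranged from 39.8 to 188 CPM within control alone and were at 53.3 to 115 CPM in DMSO, 73.6 in replicate 1 and 184 in replicate 2, with Kcnj13 at 0 in 5 libraries and Folr1 at 0 in ONX-0914 replicate 1. Gbx2 (thalamus) was at 0 in 4 libraries, Shox2 in 1 and Hba-a2 (blood) in 3. The part of these cell and region markers in the values of the members was not tested.

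**Figure D4:**
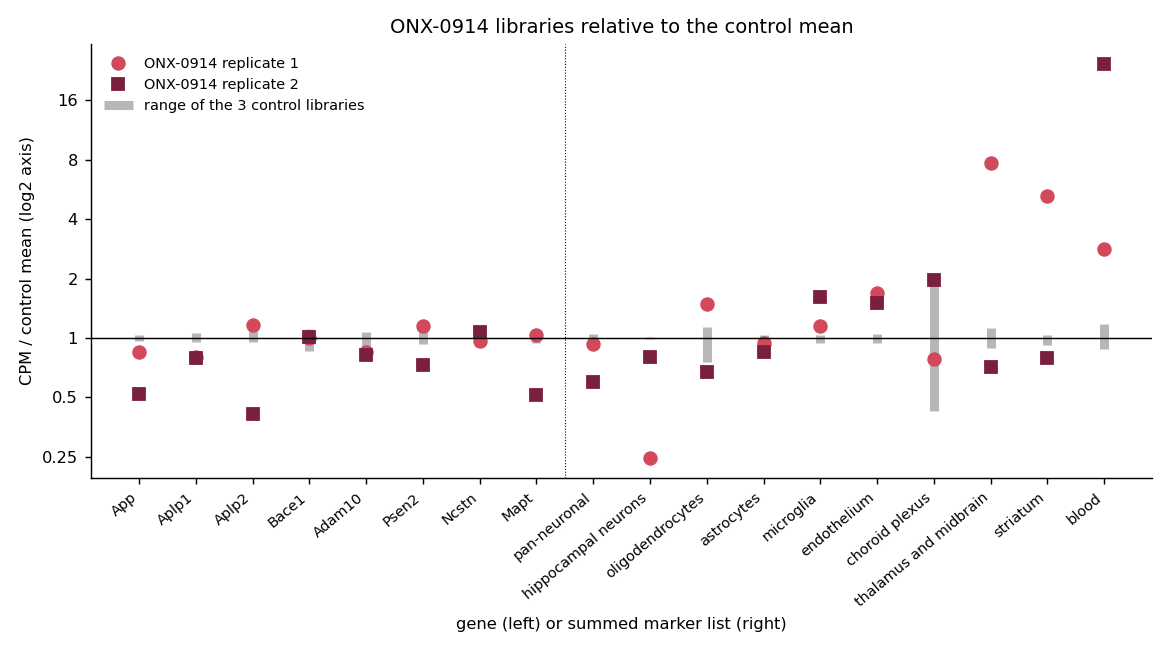
Level of each of the 8 genes (left) and of each summed marker list (right) in the 2 ONX-0914 libraries, as a ratio to the control mean on a log2 axis, with the range of the 3 control libraries as grey bars. Replicate 1 is at 0.246 for hippocampal neuron markers and 7.70 for thalamus and midbrain markers, and replicate 2 is at 24.5 for blood markers and 0.598 for pan-neuronal markers.

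The wider routes around the members were described with a list of 48 genes in 7 roles, of which 47 were tested (Ece2, a protease that can degrade the peptide, fell under the filter). None of the 47 was called by edgeR in any comparison, against the backgrounds given above. At an unadjusted p under 0.05, edgeR gave 9 in ONX-0914 against control (3 higher and 6 lower), 0 in DMSO against control and 10 in ONX-0914 against DMSO (7 higher and 3 lower). The shares of all genes at that level were 18.6%, 2.65% and 14.7%, so the counts of 9 and 10 are near the background. The median Log2FC of the list for ONX-0914 against control was 0.05, the same as over all genes, with 25 values above 0 and 22 below. In DESeq2, Apba2 (adjusted p = 0.00736) and Map4 (adjusted p = 0.0453) were called, both lower, at a background of 2.95% of all genes.

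Adaptors and sorting receptors of App held the lowest adjusted p of the list. Apba2, a Mint adaptor that binds the App tail, was at 307, 312 and 321 CPM in control, 265 and 272 CPM in DMSO, and 190 and 180 CPM in the ONX-0914 libraries (Log2FC -0.75, SE 0.15, edgeR adjusted p = 0.0892). Its 3 groups did not overlap one another. Of the 14 genes of this role, 7 had a Log2FC above 0 and 7 below, and the most abundant by CPM, Rtn3, a reticulon that binds Bace1, was at 805 ± 30.2 CPM in control (SD, n = 3) and at 707 and 992 CPM in the ONX-0914 libraries (Log2FC 0.08, adjusted p = 0.848).

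None of the other secretase genes was called. Aph1b, a gamma-secretase scaffold subunit, was at 26.0 ± 0.699 CPM in control and at 20.3 and 30.3 CPM in the ONX-0914 libraries (Log2FC -0.02, SE 0.22). Psenen, the smallest subunit, was at 22 ± 2.8 CPM in control and at 23.3 and 13.5 CPM in the ONX-0914 libraries (Log2FC -0.29, SE 0.27), which is the order seen for Psen2. Among the 3 other beta- and alpha-secretases, Adam9 was at 74.6 ± 9.41 CPM in control and at 71.1 and 53.6 CPM in the ONX-0914 libraries (Log2FC -0.26, SE 0.20) and Bace2, at 2.45 ± 2.17 CPM in control, had a Log2FC of 0.32 (SE 0.70).

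The 3 tested proteases that degrade the amyloid peptide all had a Log2FC above 0, as did 7075 of the 13152 genes tested, and none passed the test. Ide, the insulin-degrading enzyme, was at 16.7 to 19.5 CPM in control, 16.8 and 17.8 CPM in DMSO, 16 CPM in ONX-0914 replicate 1 but 52.3 in replicate 2 (Log2FC 0.98, SE 0.42, edgeR adjusted p = 0.258). Its whole difference thus sat in one library. Mme, which encodes neprilysin, was higher in replicate 1, at 5.49 to 6.25 CPM in control, 7.48 and 4.98 CPM in DMSO, and 15.3 and 7.03 CPM in the ONX-0914 libraries (Log2FC 0.84, SE 0.39, adjusted p = 0.291). Ece1, the endothelin-converting enzyme, was at 29.1 to 41.7 CPM in control, 28.1 and 28.8 CPM in DMSO, and 52.6 and 42.3 CPM in the ONX-0914 libraries (Log2FC 0.45, SE 0.21, edgeR adjusted p = 0.292). Its pair of ONX-0914 values was over the highest control value, a position held by 16.8% of all genes.

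Genes that act on tau had Log2FC values on both sides of 0, and none was called. Of 13 kinases and activators, 8 had a Log2FC above 0 and 5 below. The largest belonged to the tau-tubulin kinase Ttbk2, at 64.6 ± 4.71 CPM in control (SD, n = 3) and at 120 and 78.3 CPM in the ONX-0914 libraries (Log2FC 0.62, SE 0.21, edgeR adjusted p = 0.194). Cdk5r2, an activator of Cdk5, was at 229 ± 16.4 CPM in control and at 182 and 346 CPM in the ONX-0914 libraries (Log2FC 0.21, SE 0.26). Among genes of the phosphatase PP2A, Ppp2ca had a Log2FC of -0.04 (SE 0.16) and Ppp2cb of 0.20 (SE 0.22). Of 6 other microtubule proteins, 4 had a Log2FC below 0, led by Map4, at 1524 ± 84.0 CPM in control and at 1079 and 736 CPM in the ONX-0914 libraries (Log2FC -0.75, SE 0.23, adjusted p = 0.167). Map1a, the most abundant of them by CPM, was at 2269 and 1515 CPM against 2521 to 3016 in control (Log2FC -0.51, SE 0.28), with DMSO replicate 3 at 1706.

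**Figure D5:**
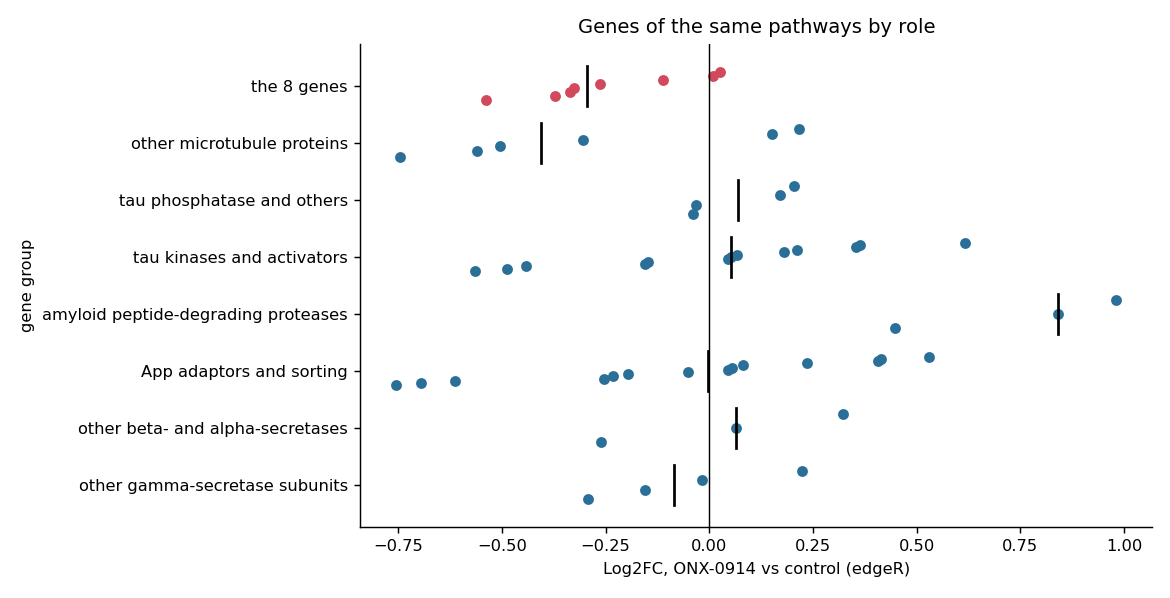
Log2FC of ONX-0914 against control from edgeR for the 47 tested genes of the same pathways by role (blue) and for the 8 genes (red), 1 point per gene, with the median of each row as a vertical line. The adaptors and the tau kinases spread to both sides of 0, and none of these genes was called.

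The profile of App over the 7 libraries was most like those of Glyr1, Fam234b and Dmtn, and genes with profiles close to that of Mapt included Kpnb1 and Wasf3, among 12410 protein-coding genes. Likeness was the root mean square difference of log2 CPM after centring on the control mean, which was 0.03 for Glyr1 and 0.05 for Fam234b and Dmtn against App, and 0.04 for Kpnb1 and 0.06 for Wasf3 against Mapt. Glyr1 was at 342 and 202 CPM in the ONX-0914 libraries and at 376 to 389 CPM in control. Kpnb1 was at 358 and 175 CPM in the ONX-0914 libraries and at 331 to 347 CPM in control. App and Mapt themselves differed by 0.13, beside medians of 0.50 over all genes for each. The 7 points of a profile include 2 libraries that stood apart, so the likeness rests mostly on them.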

How the data were processed

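RNA-seq counts of mouse hippocampus were used from 7 libraries (3 control, 2 DMSO, 2 ONX-0914). The authors extracted total RNA (RNA integrity number not under 8 by the labels), made strand-marking libraries for single-end sequencing and deposited raw read counts per Ensembl gene without normalization. The submitters' processing notes name Trimmomatic 0.39, STAR 2.7.3a, featureCounts 2.00 and build GRCm39, while the annotation release and strand setting are not given in the sources used here. Of the reads in the tables, 89.6% to 91.4% were assigned to genes, and unassigned reads stayed out of library sizes. Reads of overlapping or antisense genes may shift a count.

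Symbols and lengths came from GENCODE M21 (52135 of 55416 identifiers matched). The members and gene lists were chosen with earlier results of these data known. Counts were filtered by filterByExpr (13152 genes left), scaled by TMM (factors 0.965 to 1.10) and tested in R 4.3.3 with edgeR 4.0.16 (glmQLFit, glmQLFTest, 1 mean per group, Benjamini-Hochberg adjustment over all genes, two-sided, threshold 0.05). Log2FC used a prior count of 0.125, and log2 CPM for likeness a prior count of 2. The transcript length was that of the longest protein-coding transcript of support level 1. Counts ranged from 48 (Psen2) to 20148 (App) per library, and intervals from counts cover counting error only. The edgeR steps were checked on simulated counts. Pathway genes named were the most abundant and the largest Log2FC of each role plus any called gene, and others named (Mme, Ece2) were chosen after their values were seen. Likeness was ranked for the 3 nearest genes, and the results of some genes under these rules are not reported here. Alternatives were DESeq2 1.42.0, limma 3.58.1 voom, other scalings and filters, thinning of the deepest library, a replicate block and each library left out. The electrophysiology of the study was not analysed here.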

Additional observations from a re-analysis of the deposited data

How the results depend on the processing

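Of 272 Log2FC values of the members under settings that kept every library, 265 kept their direction and their side of the threshold, none became called, and 7 turned direction, all for Bace1, Psen2 or Mapt at values near 0. Against control with ONX-0914, Bace1 was at -0.00467 with RLE size factors and -0.00402 with DESeq2, and Psen2 was at 0.025 with total counts and 0.00174 with the deepest library thinned to 3765343 counts. Psen2 in ONX-0914 against DMSO was at -0.0352 with limma voom. Total counts shifted the median gene by 0.14 (ONX-0914 against control) and 0.14 (against DMSO).

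Deviations of same-numbered libraries from their group means correlated at -0.0963 to 0.064. In a group of 2 libraries the 2 deviations mirror each other, so this check cannot exclude a pairing by replicate number. The replicate block left 0 members called, and 1, 0 and 0 genes over all, in the 3 comparisons. With the block, the Log2FC of Psen2 was -0.11 in ONX-0914 against DMSO and that of Mapt 0.0117 in DMSO against control.

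Leaving out 1 library moved the members called from 0 to between 0 and 4 (ONX-0914 against control) and between 0 and 5 (against DMSO). It moved the pathway genes called in ONX-0914 against control to between 0 and 24 of 47. They were 24 without ONX-0914 replicate 1 and 10 without replicate 2, and 2 in DESeq2 with every library kept. The shares of all genes called were 51.2%, 19.0% and 2.95% in the same order, so these counts are near the background. Of the 168 Log2FC values of the members with 1 library left out, 11 turned direction. The ranges for ONX-0914 against control were -1.28 (without ONX-0914 replicate 1) to 0.22 (without replicate 2) for Aplp2, -0.94 to -0.23 for App, -0.97 to 0.0421 for Mapt, -0.45 to 0.21 for Psen2 and 0.0825 to -0.0644 for Ncstn in the same order, with Ncstn also below 0 without control replicate 1, and -0.0901 (without control replicate 2) to 0.0864 (without control replicate 1) for Bace1, which was also below 0 without DMSO replicate 3. Against DMSO they were -1.08 to 0.43 for Aplp2, -0.80 to -0.09 for App, -0.86 to 0.15 for Mapt and -0.28 to 0.38 for Psen2, again without ONX-0914 replicate 1 and without replicate 2. For DMSO against control Aplp1 ran from -0.052 (without DMSO replicate 2) to 0.11 (without DMSO replicate 3). The cause was not tested. The number of all genes called for ONX-0914 against control was 15, and was 578 without a filter on low counts, 388 in DESeq2, 47 with thinning, 343 against control and DMSO as 1 group, 3 with the compared groups only, 7023 without ONX-0914 replicate 1, 2594 without ONX-0914 replicate 2, and 0 without any single control library. The App share of the family per length in control, 43.7%, was 20.7% over the union of exons and 47.3% without lengths. With 2 libraries per injected group, every 95% interval of the members included 0.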
